A study of Mus musculus with 4 samples.

Results

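The 9 genes described here encode lysosomal proteases, lipid hydrolases and proteins that work beside them: Ctsd, Ctsb, Ctss, Ctsl, Ctsz, Lgmn, Lamp1, Npc2 and Lipa. They were chosen by symbol, and each symbol matched 1 of the 31253 features counted in 4 Visium sections of mouse liver. Visium captures polyadenylated RNA on a grid of barcoded spots, and each spot covers a small area that can hold several cells, so a spot is not a cell type. The MASH sections (MASH-1 and MASH-2) came from livers of mice given the diet labelled WD for 16 weeks, and the MAFL sections (MAFL-1 and MAFL-2) from livers of mice given WD for 8 weeks. All 4 sections were therefore from WD-fed animals, model and weeks of diet changed together, and no chow-fed group is part of the comparison. Strain, sex and age were not given in the sources used here, and the labels do not say whether MASH-1 and MASH-2, or MAFL-1 and MAFL-2, are different animals. P-values between the groups therefore measure only how far these sections spread. Those between zones or spot classes, with the section as a block, rest on differences within sections and largely on variance estimates shared over genes. A very small p there does not measure how alike the 4 sections were. Neither kind can be read as spread between animals.

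Lysosomes break down proteins, lipids and glycans at acid pH. Cathepsins and legumain cut proteins taken up from outside the cell or delivered by autophagy, and in antigen-presenting cells they also process antigens. In the fatty liver, macrophages that take up dying, lipid-laden hepatocytes fill with lysosomes, and Gpnmb is one of the markers of such lipid-associated macrophages. Clec4f marks resident Kupffer cells of the mouse, and Cidec encodes a lipid droplet protein of hepatocytes with large droplets. These 3 genes served as anchors against which the 9 genes were read, and the lobule was read from Cyp2e1, which marks hepatocytes around the central vein, and Cyp2f2, which marks those around the portal tract.

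After spots with fewer than 500 UMIs (unique molecular identifiers, each counting 1 captured RNA molecule) were left out, MASH-1 held 2467 spots, MASH-2 1862, MAFL-1 2036 and MAFL-2 1881. Summed UMIs ran from 44581221 to 63808230 in the MASH sections, against 32249289 to 38126800 in the MAFL sections. The median spot had 25291 and 20132.5 UMIs in the MASH sections, against 15430.5 and 19671 in the MAFL sections. Any pair of sections shared between 1182 and 1725 spot barcodes, which name positions on the slide. Hepatocyte markers (8 genes, Alb among them) summed to 93736 and 99594 CPM (UMIs of a gene scaled to a common total per section) in the MASH sections and 95754 and 96071 CPM in the MAFL sections, so the tissue label held. The 10 Kupffer markers summed to 1004 and 1082 CPM in the MASH sections, against 514 and 658 CPM in the MAFL sections. The 9 lipid-associated macrophage markers summed to 152 and 304 CPM in the MASH sections, against 66.9 and 70.2 CPM in the MAFL sections, and the 9 monocyte and macrophage markers to 461 and 487 CPM against 143 and 164 CPM. Of these 28 markers, 1 was at 0 in a section: Atp6v0d2 had 0 UMIs in MAFL-1, beside 69 in MAFL-2. Macrophage RNA was thus higher in both MASH sections beside every comparison of MASH with MAFL below, and in spots fewer cells of a type and less RNA per cell cannot be told apart.

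Over whole sections, Ctss and Lgmn stood furthest apart between the groups. Ctss, which encodes cathepsin S, a cysteine protease of antigen-presenting cells that trims the invariant chain of MHC class II, had 71.1 and 126 CPM in the MASH sections and 29.9 and 41.0 CPM in the MAFL sections. Both MASH sections lay above both MAFL sections, and the MASH sections differed from each other more than the MAFL sections did. The edgeR quasi-likelihood test on summed UMIs gave a log2 fold change of 1.35 ± 0.29 (SE), with an adjusted p of 0.106. Lgmn, which encodes legumain, a protease that cuts after asparagine and activates several cathepsins, had 140 and 169 CPM in the MASH sections and 73.3 and 89.3 CPM in the MAFL sections. The groups did not overlap, and the log2 fold change was 0.82 ± 0.18 with an adjusted p of 0.0985 by the same test. With edgeR, 0 of the 9 genes passed an adjusted p of 0.05, where 0.456% of the 13593 genes tested did so and 2605 of them had an unadjusted p under 0.05. DESeq2 called 2 of the 9, where it called 4.61% of the genes: its adjusted p was 0.000347 for Ctss and 0.00342 for Lgmn. Without MASH-1, Ctss passed the edgeR test as well (log2 fold change 1.64, adjusted p = 0.0301), and the adjusted p of Ctss ran from 5.6e-05 to 0.386 over the 12 alternatives.

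The other proteases differed less. Ctsd, which encodes cathepsin D, the main aspartic protease of the lysosome, had 640 and 781 CPM in the MASH sections and 457 and 518 CPM in the MAFL sections (log2 fold change 0.43 ± 0.19, adjusted p = 0.261). The groups did not overlap, but the gap between the nearest sections was smaller than the difference between the MASH sections. Ctsb, for the cysteine protease cathepsin B, had 832 and 1057 CPM in the MASH sections and 726 and 870 CPM in the MAFL sections, and the groups overlapped (0.13 ± 0.20, adjusted p = 0.749). Ctsl, for cathepsin L, an endopeptidase, had 664 and 658 CPM in the MASH sections and 571 and 844 CPM in the MAFL sections, so both MASH values lay between the MAFL values. Ctsz, for cathepsin Z, which removes single residues from the carboxyl end of proteins, had 526 and 539 CPM in the MASH sections and 569 and 528 CPM in the MAFL sections. The log2 fold changes were -0.20 ± 0.24 for Ctsl and -0.14 ± 0.17 for Ctsz, with adjusted p of 0.672 and 0.679.

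Of the genes that handle lipid or build the membrane, Npc2 had the largest difference between the groups. Npc2, which encodes the soluble protein that hands cholesterol to the transporter at the lysosomal membrane, had 137 and 146 CPM in the MASH sections and 89.9 and 101 CPM in the MAFL sections (log2 fold change 0.46 ± 0.16, adjusted p = 0.211). Lipa, for the acid lipase that hydrolyses cholesteryl esters and triglycerides in the lysosome, had 156 and 143 CPM in the MASH sections and 124 and 119 CPM in the MAFL sections (0.20 ± 0.17, adjusted p = 0.537). Lamp1, for a heavily glycosylated protein of the lysosomal membrane, had 504 and 568 CPM in the MASH sections and 445 and 459 CPM in the MAFL sections (0.14 ± 0.17, adjusted p = 0.685). All 3 had groups that did not overlap. Counting all members, 6 of 9 lay higher in both MASH sections, where 34.1% of all 13593 genes did, and 0 of 9 lay lower in both, where 18.2% of genes did. The median log2 fold change of the 9 genes was 0.20, beside 0.0069 over all genes tested.

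**Figure D1:**
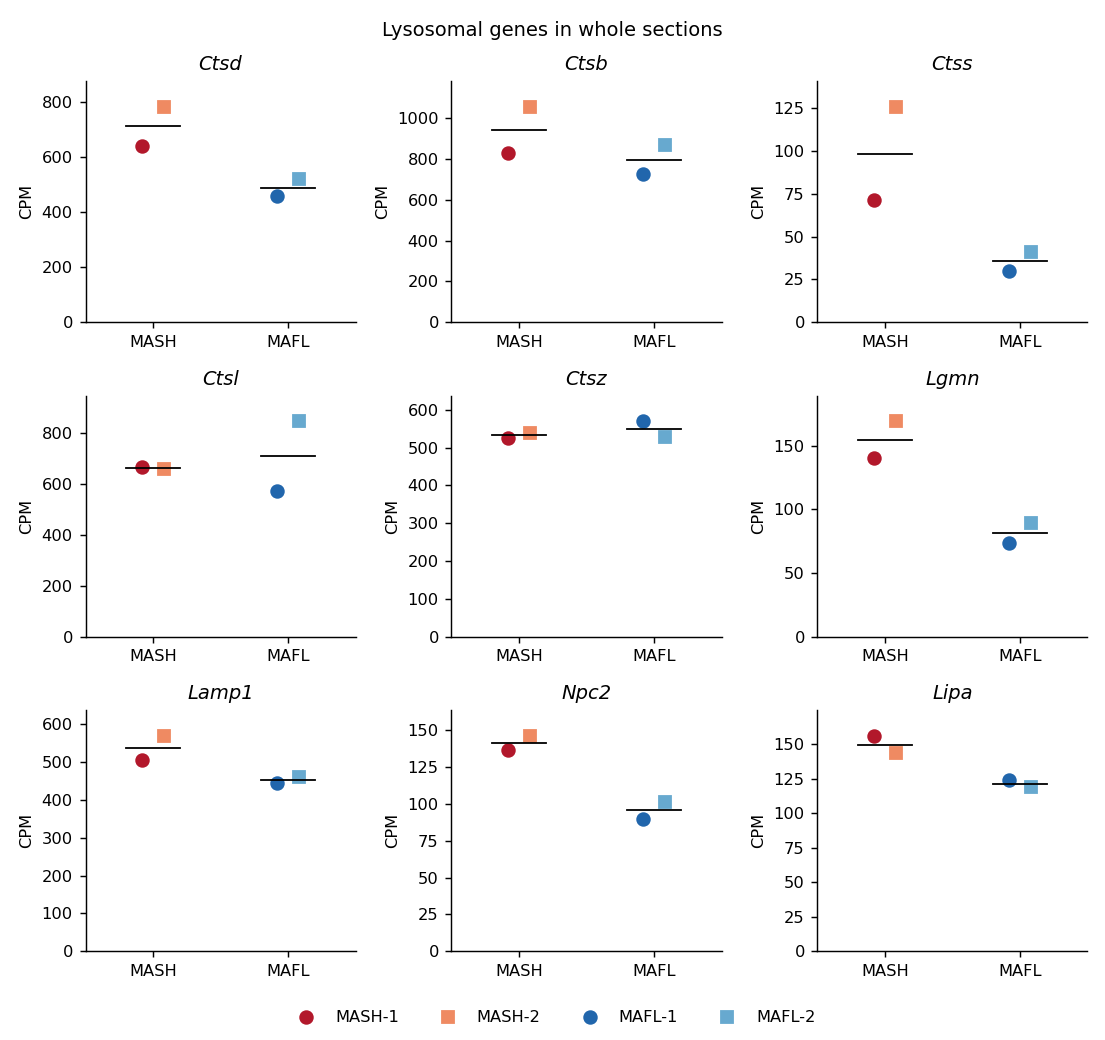
Level of each gene in CPM (vertical axis, from 0) in the MASH sections (left, red) and the MAFL sections (right, blue), with circles for replicate 1, squares for replicate 2 and a bar at the group mean. Ctss, Lgmn, Ctsd, Npc2, Lipa and Lamp1 lie higher in both MASH sections, and Ctsb, Ctsl and Ctsz overlap between the groups.

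The share of spots with at least 1 UMI of a gene, taken after every spot was thinned at random to an equal 5000 UMIs, differed most between the groups for Ctss, Lgmn and Npc2. Ctss was found in 27.5% of MASH-1 spots (exact binomial 95% interval 25.7 to 29.3%) and 43.2% of MASH-2 spots (41.0 to 45.5%), against 13.4% of MAFL-1 spots (11.9 to 14.96%) and 18.3% of MAFL-2 spots (16.6 to 20.1%). These intervals cover counting error only. Lgmn was found in 45.7% and 54.7% of MASH spots against 29.3% and 35.2% of MAFL spots, and Npc2 in 48.8% and 51.9% against 35.0% and 38.0%. Counting all members, 6 of 9 had higher shares in both MASH sections (these 3, Lipa, Ctsd and Lamp1), as 31.2% of the 13593 genes had. Before thinning, the Ctss shares were 73.2% and 82.2% in MASH and 36.1% and 53.0% in MAFL. Lipa was found in 53.7% and 52.5% of MASH spots against 46.7% and 45.5% of MAFL spots. Ctsb, Ctsl, Ctsz, Lamp1 and Ctsd were found in 89.7% to 99.5% of thinned spots of every section, so this share said little about them. With 2 sections against 2, an exact test of such shares cannot give a p below 0.333333.

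In lists of other lysosomal genes, none passed the whole-section test in either direction. As only 0.456% of the 13593 genes tested passed, an absence of calls in lists this small says little. Those that passed were 0 of 11 other cysteine and aspartic proteases and peptidases, 0 of 14 other lipid hydrolases and 0 of 18 glycan and sulfate hydrolases. They were also 0 of 14 tested membrane and lipid transfer genes and 0 of 16 proton pump (V-ATPase) genes. Of the TFEB family and enzyme sorting they were 0 of 12, and of the tested cathepsin inhibitors 0 of 4. Their median log2 fold changes were 0.10, 0.10, -0.04, -0.15, 0.11, -0.06 and 0.47 in the same order. Counting all listed genes, 6 of 11, 6 of 14, 6 of 18, 5 of 15, 10 of 16, 6 of 12 and 4 of 6 had higher CPM in both MASH sections. Lower in both were 2, 0, 3, 3, 1, 0 and 0. Of all 13593 genes, 34.1% were higher in both and 18.2% lower in both. Scaled to library totals in place of TMM factors, the median of all genes moved to 0.11, so fold changes near that size have no settled sign. Of the monocyte and macrophage markers, Lyz2, Tyrobp and Fcer1g were the 3 that rose in MASH sections in this test.

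Lysosomal genes are known targets of TFEB, a transcription factor whose motif centres on the palindrome CACGTG. The promoter table of RefSeq for build GRCm38.p6 held 9 promoters of 8 of the genes, from 250 bases before to 50 bases after the start site. The 6 letters CACGTG, which read the same on both strands, were in 4 of these 9 promoters and in 7.15% of the 32851 promoters in the table. The longer form TCACGTGA, which contains the first, was in 1 of the 9 and in 0.974% of all promoters. The windows that hold CACGTG are shown because they show which members carry it and which do not: each runs 5′ to 3′ on the gene's own strand, with the match in capitals.
Ctsd, chr7:142388040-142388077, minus strand: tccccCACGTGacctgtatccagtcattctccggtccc
Ctsd, chr7:142387893-142387952, minus strand: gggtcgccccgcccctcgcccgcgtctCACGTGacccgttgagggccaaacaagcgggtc
Ctsl, chr13:64370724-64370770, minus strand: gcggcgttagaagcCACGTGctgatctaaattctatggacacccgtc
Lgmn, chr12:102439109-102439168, minus strand: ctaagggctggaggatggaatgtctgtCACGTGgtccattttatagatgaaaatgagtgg
Lamp1, chr8:13159073-13159160, plus strand: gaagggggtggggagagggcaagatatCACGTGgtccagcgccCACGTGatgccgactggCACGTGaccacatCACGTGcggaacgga
The Ctsd matches began 245 and 98 bases before the start site, the Ctsl match 236 bases and the Lgmn match 49 bases before the start of one of its 2 promoters. Lamp1 had 4 matches, which began 61 to 15 bases before its start. The promoters of Ctss, Ctsz, Npc2 and Lipa held none of these letters in this window. The genes with the match (Ctsd, Ctsl, Lgmn, Lamp1) had log2 fold changes between MASH and MAFL from -0.20 to 0.82, and those without it (Ctss, Ctsz, Npc2, Lipa) from -0.14 to 1.35. A match describes the sequence and is not a bound site.

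Each section was divided into 3 zones of equal spot numbers by the log2 ratio of Cyp2f2 to Cyp2e1 UMIs, with 1 added to each. The zones are ranks within a section, and the lower border of the periportal zone lay at -2.40 and -1.34 in the MASH sections and at 0.11 and -1.16 in the MAFL sections. Periportal spots were deeper in the MASH sections, with medians of 33004.5 and 34028 UMIs beside 22911 and 15755 UMIs in pericentral spots, while MAFL-1 had 15499 beside 15626 and MAFL-2 22462 beside 18560. Periportal was compared with pericentral by edgeR with the section as a block, and 19.4% of the 11934 genes tested passed (9.08% higher and 10.4% lower in the periportal zone). Of the 9 lysosomal genes, 3 passed: Lgmn and Ctss were higher in the periportal zone and Lipa was lower.

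Lipa had 138, 119, 119 and 108 CPM in the periportal zone of MASH-1, MASH-2, MAFL-1 and MAFL-2, and 173, 184, 130 and 127 CPM in the pericentral zone of the same sections. It was lower in the periportal zone of all 4 sections, as 20.4% of genes were, and the middle zone lay in between in each. The log2 fold change was -0.31 ± 0.06 (edgeR, adjusted p = 6.6e-05). Lgmn had 163, 163, 75.3 and 96.4 CPM in the periportal zone and 111, 156, 67.3 and 78.2 CPM in the pericentral zone of the same 4 sections. It was higher in the periportal zone of all 4, as 13.1% of genes were, by a log2 fold change of 0.31 ± 0.06 (edgeR, adjusted p = 8.6e-05). In MASH-2 and MAFL-1 the middle zone had more Lgmn than either end, with 193 and 77.6 CPM. Both calls were lost when the section was not kept as a block, with adjusted p of 0.183 for Lipa and 0.308 for Lgmn.

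Ctss was called higher in the periportal zone (log2 fold change 0.21 ± 0.06, edgeR adjusted p = 0.0131) and was lower in MAFL-2. Its periportal over pericentral log2 ratio was 0.46 in MASH-1, 0.05 in MASH-2, 0.24 in MAFL-1 and -0.07 in MAFL-2. Without MASH-1 the log2 fold change was 0.12 with an adjusted p of 0.289, without MASH-2 it was 0.24 with an adjusted p of 0.0514, and in zones ranked within bins of total UMIs it was 0.09 with an adjusted p of 0.273. The Ctss call was lost in 6 of 12 alternatives. Ctsd was lower in the periportal zone of all 4 sections (-0.15 ± 0.06) and Ctsl was higher in all 4 (0.16 ± 0.06), with adjusted p of 0.109 and 0.0767. Ctsd passed in 3 alternatives, among them the depth-binned zones (-0.19, adjusted p = 0.00269). Npc2, Ctsb, Ctsz and Lamp1 had log2 fold changes of 0.13, 0.08, 0.05 and 0.01 and did not pass.

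**Figure D2:**
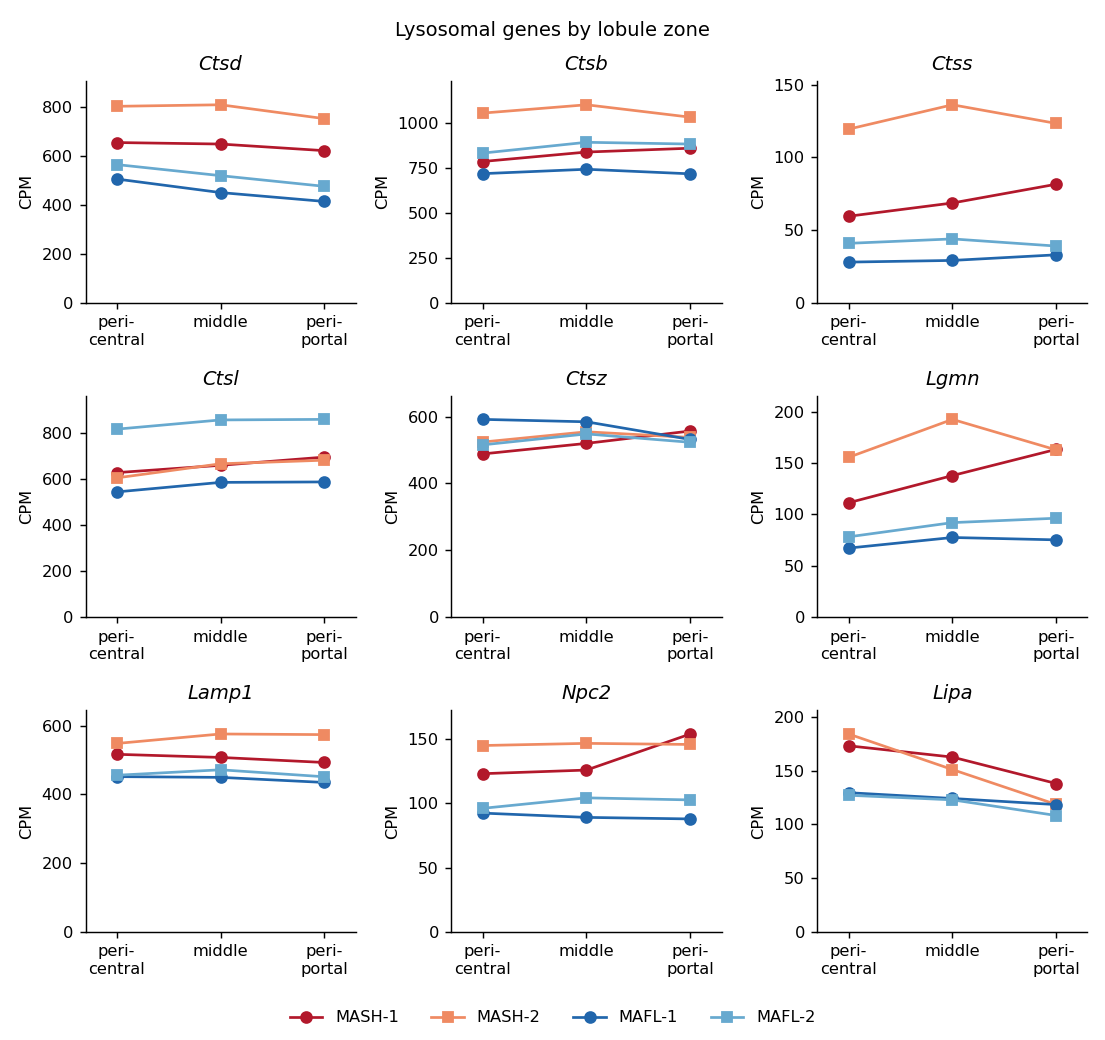
Level of each gene in CPM (vertical axis, from 0) in the pericentral, middle and periportal zones of the MASH sections (red) and MAFL sections (blue), 1 line per section. Lipa declines toward the periportal zone in every section, most in MASH-2, while Lgmn ends higher than it begins in all 4.

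Other lysosomal genes were zoned in both directions. Among the other proteases, Ctsc, which encodes the dipeptidyl peptidase that activates serine proteases of granules, rose toward the portal tract by a log2 fold change of 1.13, as did Cpq by 0.25, while Ctso (-0.30) and Ctsf (-0.19) fell. Of the other lipid hydrolases, Naaa (0.45) was higher, and Hexa (-0.26) and Pla2g15 (-0.29) were lower. Of the glycan and sulfate hydrolases, Galns (0.63) and Gusb (0.29) were among those higher and Hyal1 (-0.44) among those lower. The tetraspanin gene Cd63 (0.90) and the ganglioside activator Gm2a (0.40) were higher as well. The cytosolic lipid droplet genes ran the other way, with 0 of 11 tested higher and 5 lower in the periportal zone, Cidea (-2.95) and Fitm1 (-1.97) among them. Marker genes were called between the zones too: 4 of 4 cholangiocyte, 5 of 8 hepatocyte, 5 of 9 lipid-associated macrophage, 3 of 8 tested monocyte and macrophage and 3 of 10 Kupffer markers were called higher in the periportal zone, and 4 of 6 endothelial and 3 of 6 stellate and fibroblast markers lower. The lipid-associated macrophage markers summed to 176 CPM in the periportal and 126 CPM in the pericentral zone of MASH-1 and 303 and 286 CPM in those of MASH-2, but to 56.6 and 79.1 CPM in those of MAFL-1 and 57.7 and 86.6 CPM in those of MAFL-2. The part of these markers in the zonation of Lgmn, Ctss and Lipa was not tested.

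The zone slopes were then compared between the groups. The periportal over pericentral log2 ratio of Lipa was -0.33 and -0.64 in the MASH sections and -0.13 and -0.23 in the MAFL sections, and that of Ctsd was -0.08 and -0.09 in the MASH sections and -0.29 and -0.25 in the MAFL sections. Ctsl (0.15 and 0.17 against 0.11 and 0.07) and Ctsz (0.19 and 0.04 against -0.15 and 0.02) did not overlap between the groups either, which makes 4 of 9 genes, as 36.2% of 12410 genes did not. The interaction of group and zone did not pass over all genes (Lipa -0.25 ± 0.10, adjusted p = 0.607; Ctsd 0.23 ± 0.10, adjusted p = 0.673). With edgeR, 0 of 9 genes passed the interaction test, where 0.392% of 12496 genes did; Ctsd passed without MASH-1 (0.30, adjusted p = 0.0246). At an unadjusted p under 0.05, Lipa (0.0177), Ctsd (0.0321) and Ctsz (0.0342) did, as 7.11% of genes did. The anchor Cidec did differ, with an interaction of -1.11 ± 0.13 and an adjusted p of 2.5e-06.

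Within the zones, Ctss passed the test between the groups at the portal end. In the periportal zone it had 81.4 and 123 CPM in the MASH sections and 32.9 and 38.9 CPM in the MAFL sections, a log2 fold change of 1.43 ± 0.22 (edgeR, adjusted p = 0.0311). It was the 1 member of 9 called there, where 1.28% of 12478 genes were (0.914% higher), and it passed in 8 of 8 alternatives, with an adjusted p of at most 0.0455. In the middle zone Ctss had 68.5 and 136 CPM in the MASH sections and 29.0 and 43.8 CPM in the MAFL sections (1.37, adjusted p = 0.164). In the pericentral zone it had 59.4 and 119 CPM in the MASH sections and 27.9 and 40.8 CPM in the MAFL sections (1.21, adjusted p = 0.154). The MASH sections lay above the MAFL sections in all 3 zones and stood closest to each other in the periportal zone. A call in 1 zone does not show that the zones differ, since the interaction for Ctss had an adjusted p of 0.734.

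With edgeR, 0 of 9 genes passed in the middle zone (0.52% of 11912 genes) and 0 of 9 in the pericentral zone (0.754% of 11800 genes); in each of these zones Ctss and Lgmn had an unadjusted p under 0.05, joined by Ctsd in the middle zone, where 16.2% of genes in the middle and 17.6% in the pericentral zone did. DESeq2 called Ctss in both, and Lgmn in the middle zone, beside 2.12% of genes in the middle and 2.42% in the pericentral zone. Lgmn had log2 fold changes of 0.73 in the pericentral, 0.86 in the middle and 0.85 in the periportal zone, with adjusted p of 0.112, 0.116 and 0.0752. Of the other lysosomal genes, Cd68 (1.52), a membrane protein of macrophage lysosomes, and Cstb (1.10), which encodes the cathepsin inhibitor cystatin B, rose in MASH sections in the periportal zone. So did 5 of 9 lipid-associated macrophage markers (Trem2, Gpnmb, Mmp12, Lgals3 and Itgax) and 4 of 9 monocyte and macrophage markers (Lyz2, Tyrobp, Fcer1g and Ms4a7). Their part in the rise of Ctss was not tested.

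Gpnmb RNA was almost confined to the MASH sections, with 12.6 and 42.4 CPM there against 0.217 and 0.367 CPM in the MAFL sections. After thinning, 124 spots of MASH-1 and 276 of MASH-2 held at least 1 Gpnmb UMI, against 3 spots of MAFL-1 and 5 of MAFL-2. What follows on Gpnmb therefore describes the MASH sections. Holding and lacking spots had like depth there, with medians of 26074 and 25569 UMIs in MASH-1 and 20808 and 20179.5 UMIs in MASH-2.

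Ctss and Lgmn were higher in spots that held Gpnmb. Ctss had 111 CPM in holding spots and 69.1 CPM in lacking spots of MASH-1, and 198 and 113 CPM in those of MASH-2. Lgmn had 217 CPM in holding and 137 CPM in lacking spots of MASH-1, and 229 and 159 CPM in those of MASH-2. In the edgeR fit over all 4 sections, with the section as a block, both genes were called, with log2 fold changes of 0.69 ± 0.07 (adjusted p = 7.3e-18) for Ctss and 0.51 ± 0.07 (adjusted p = 1.3e-09) for Lgmn. They were 2 of 9 members called, where 1.78% of 12348 genes were (1.55% higher). Both calls were lost with DESeq2 (adjusted p = 0.999986 for each) and without the block. Leaving out MASH-1 gave adjusted p of 0.146 for Ctss and 0.935 for Lgmn, and leaving out MASH-2 gave 0.999 for both, while the direction stayed positive in all of these.

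Ctsd and Ctsb were higher in Gpnmb-holding spots of both MASH sections as well. Ctsd had 827 CPM in holding and 630 CPM in lacking spots of MASH-1, and 1025 and 739 CPM in those of MASH-2. Ctsb had 1036 CPM in holding and 821 CPM in lacking spots of MASH-1, and 1251 and 1023 CPM in those of MASH-2. Neither passed over all 4 sections (log2 fold change 0.24, adjusted p = 0.509 and 0.10, adjusted p = 0.903). In an edgeR fit of the MASH sections alone, 5 of 9 genes passed, where 3.18% of 13056 genes did (1.97% higher): Ctss (0.69), Lgmn (0.52), Ctsd (0.37, adjusted p = 1.2e-11), Ctsb (0.24, adjusted p = 2.6e-05) and Npc2 (0.18, adjusted p = 0.0349). With only the MASH sections in this fit, its p-values rest largely on variance estimates shared over genes, and little on a spread of sections. All 9 genes had higher CPM in holding spots of both MASH sections, as 38.5% of genes had. For Lamp1, Ctsl and Ctsz these log2 ratios were small, between 0.0005 and 0.12. The edgeR fit over all 4 sections gave them log2 fold changes of -0.06, -0.09 and -0.07. With library totals in place of TMM factors, the median of all genes in that fit was 0.06. Differences of these 3 genes therefore have no settled sign. The MAFL values rested on few molecules: Lgmn had 0 UMIs in the 3 holding spots of MAFL-1, where a count of 0 allows up to 74.6 CPM, beside 73.5 CPM in the lacking spots.

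Levels were also read by the number of Gpnmb UMIs per thinned spot. In MASH-2, spots with 0, 1, 2 to 3, and 4 or more Gpnmb UMIs numbered 1570, 216, 54 and 6. Before thinning, their medians were 20179.5, 19659.5, 24364 and 34660.5 UMIs, so depth was not alike along this series. Ctsd had 739, 874, 1328 and 2506 CPM along this series, and Ctsb 1023, 1136, 1487 and 2336 CPM. Ctss had 113, 149, 323 and 501 CPM, Lgmn 159, 195, 318 and 423 CPM, and Npc2 141, 147, 232 and 340 CPM. Lipa had 140, 162, 167 and 216 CPM, Ctsz 534, 544, 619 and 671 CPM, and Lamp1 561, 597, 650 and 653 CPM. Along these steps of MASH-2, 8 of 9 genes had a higher level each time, all but Ctsl, as 12.4% of 12348 genes had. The last class is only 6 spots of 1 section: its Ctss level rests on 109 UMIs, with an exact Poisson 95% interval of 412 to 605 CPM that covers counting error only. The rise over the other 3 classes is part of the count of 8 of 9 genes and is no separate evidence. In MASH-1, which had 2300, 109 and 15 spots with 0, 1 and 2 to 3 Gpnmb UMIs, Ctsd had 630, 778 and 1219 CPM, Ctsb 821, 983 and 1452 CPM, Ctss 69.1, 106 and 150 CPM and Lgmn 137, 198 and 374 CPM. Npc2 had 136, 153 and 181 CPM in MASH-1, Lipa 155, 166 and 173 CPM and Ctsz 524, 547 and 714 CPM. Lamp1 had 504, 513 and 437 CPM there, so its increase in MASH-2 was not seen in MASH-1. Ctsl had 651, 680, 760 and 694 CPM in MASH-2 and 663, 657 and 828 CPM in MASH-1. The increases of Ctsz, Lamp1 and Lipa over the whole MASH-2 series were smaller than those of the first 5 genes.

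**Figure D3:**
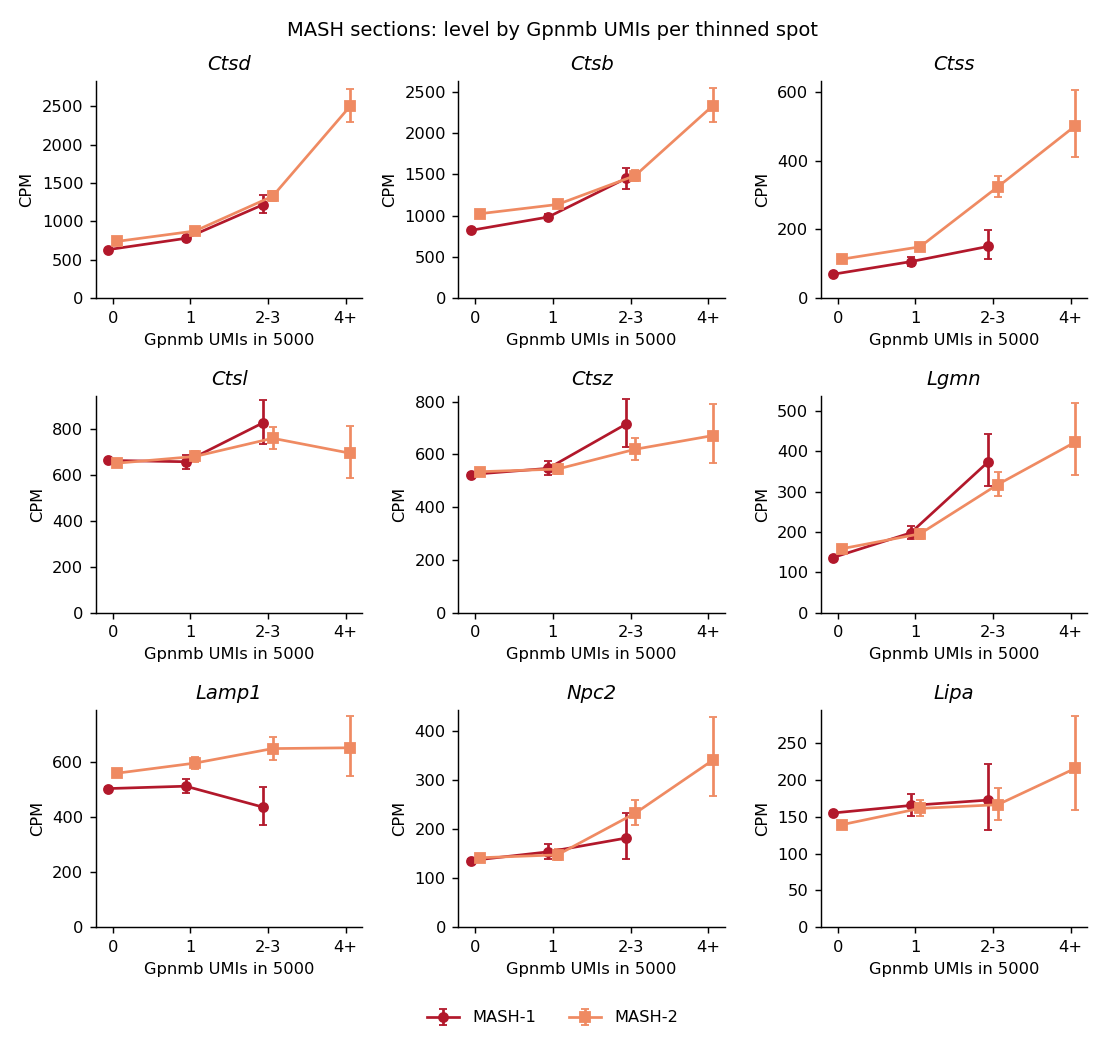
Level of each gene in CPM (vertical axis, from 0) by the number of Gpnmb UMIs among 5000 in a spot (horizontal axis), for MASH-1 (circles) and MASH-2 (squares), with exact Poisson 95% intervals. Ctsd, Ctsb, Ctss, Lgmn and Npc2 climb with Gpnmb in MASH-2, where the last class holds 6 spots. Ctsz, Lamp1 and Lipa climb less there, and Ctsl is lower in the last class than in the one before it. In MASH-1, Lamp1 is lowest in the class of 2 to 3 UMIs.

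Among the other lysosomal genes, those higher in Gpnmb-holding spots included Ctsc (0.29) of the proteases, Cd63 (0.70), Cd68 (0.91) and Laptm5 (0.57) of the membrane genes, Atp6v0d2 (1.48) of the V-ATPase, which is itself a lipid-associated macrophage marker here, and the inhibitors Cstb (0.31) and Serpinb6a (0.36). Of the 18 glycan and sulfate hydrolases and the 12 genes of TFEB and sorting, 0 passed with edgeR. The holding spots were also richer in other macrophage markers: 8 of 8 other lipid-associated macrophage, 5 of 9 monocyte and macrophage and 4 of 10 Kupffer markers were called higher, as were Col1a1 (1.05) and Col3a1 (0.83) of matrix-producing cells. Monocyte and macrophage markers summed to 728 CPM in holding and 447 CPM in lacking spots of MASH-1, and 753 and 441 CPM in those of MASH-2. Their part in the higher Ctss and Lgmn was not tested.

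Clec4f was present in all 4 sections, and 1130 and 868 spots of the MASH sections and 736 and 786 spots of the MAFL sections held it. Lgmn, Ctss and Ctsb were higher in holding than in lacking spots of each section, and these 3 of 9 genes passed the edgeR test, where 0.381% of 12611 genes did (0.357% higher). With Ctsz, which did not pass (0.03), 4 of 9 genes had higher CPM in holding spots of all 4 sections, as 7.38% of genes had. Lgmn had 158 CPM in holding and 124 CPM in lacking spots of MASH-1, 187 and 153 CPM in MASH-2, 77.5 and 71.0 CPM in MAFL-1, and 95.5 and 84.6 CPM in MAFL-2. The log2 fold change was 0.25 ± 0.03 (adjusted p = 7.7e-09). Ctss had 79.0 CPM in holding and 63.9 CPM in lacking spots of MASH-1, 141 and 112 CPM in MASH-2, 30.8 and 29.4 CPM in MAFL-1, and 43.6 and 39.0 CPM in MAFL-2 (0.25 ± 0.03, adjusted p = 6.5e-07). Ctsb differed by 0.10 ± 0.02 (adjusted p = 0.000971). All 3 calls were lost without the section block. The calls of Ctss (adjusted p = 0.0818) and Ctsb (0.785) were also lost with DESeq2, that of Ctss with classes from raw UMIs (0.140) and that of Ctsb without MASH-1 (0.201).

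The difference was larger in the MASH sections for each of these 3 genes, but not for them alone. The ratios of Ctsd, Ctsz, Npc2 and Lamp1 were also higher in both MASH sections. Those of Lipa were lower in both, and those of Ctsl overlapped. The share of all genes with such ratios was not counted. The log2 ratio of holding over lacking spots for Lgmn was 0.34 and 0.29 in the MASH sections and 0.13 and 0.17 in the MAFL sections. That of Ctss was 0.31 and 0.32 in the MASH sections and 0.07 and 0.16 in the MAFL sections, and that of Ctsb 0.13 and 0.18 against 0.07 and 0.03. With edgeR, 0 of 9 genes passed the interaction of group and class, where 0.0228% of 13153 genes did; the unadjusted p was 0.00459 for Lgmn, 0.00874 for Ctss and 0.0121 for Ctsb, with 4.22% of genes under 0.05, and the adjusted p 0.888, 1 and 1. Ctsb passed without MASH-1 (0.13, adjusted p = 0.000309). Ctsl, Ctsz, Lamp1 and Lipa had log2 fold changes between holding and lacking spots from -0.004 to 0.03.

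Cidec was held by 786 and 647 spots of the MASH sections and 249 and 105 spots of the MAFL sections. With edgeR, 0 of 9 genes passed between holding and lacking spots, where 0.88% of 12839 genes did. Lipa came nearest, with 164 CPM in holding and 152 CPM in lacking spots of MASH-1, 159 and 136 CPM in MASH-2, 123 and 124 CPM in MAFL-1, and 117 and 119 CPM in MAFL-2. Lipa was thus higher in Cidec-holding spots of both MASH sections and level in the MAFL sections, with a log2 fold change of 0.09 ± 0.04, an unadjusted p of 0.0118 and an adjusted p of 0.319. The interaction for Lipa was 0.18 ± 0.07 (adjusted p = 0.587), and with edgeR 0 of 9 genes passed it, where 0.519% of 13481 genes did. Lipa was the 1 member with an unadjusted p under 0.05 in either fit, where 8.48% of genes were in the first and 6.3% in the interaction. Cidec and Lipa both had lower CPM in the periportal than in the pericentral zone of all 4 sections, and zone was not part of this fit. Of the lipid droplet genes, Cidea (0.58), Fitm1 (0.40) and Plin4 (0.33) were higher in Cidec-holding spots.

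**Figure D4:**
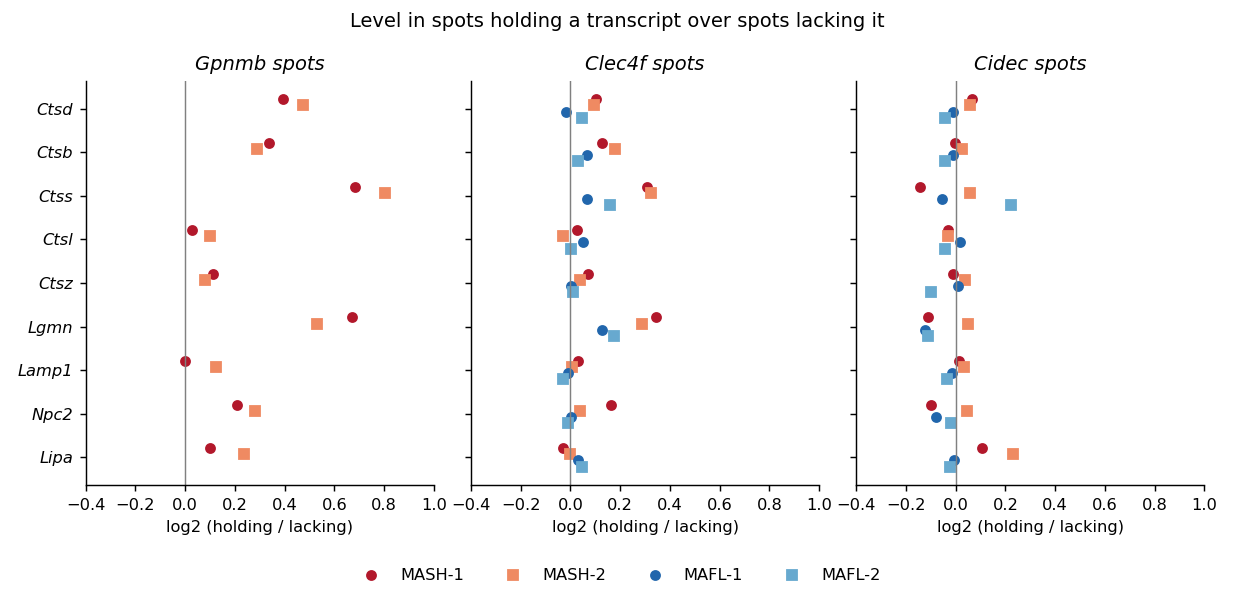
Log2 ratio of CPM in spots that hold Gpnmb, Clec4f or Cidec over spots that lack it (horizontal axis; 0 means no difference), for each gene (rows) and section (MASH red, MAFL blue; circles replicate 1, squares replicate 2). MAFL sections are left out for Gpnmb, where they have 3 and 5 holding spots; In the MASH sections Ctss and Lgmn lie furthest right for Gpnmb and Clec4f.

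Over single thinned spots, all correlations were weak. Spearman's rho with Gpnmb was 0.05 and 0.14 for Ctsd, 0.08 and 0.10 for Ctsb, and 0.06 and 0.10 for Ctss in MASH-1 and MASH-2 (2424 and 1846 spots). The median over the 9 genes was 0.046 and 0.055, where 3498 commonly detected genes had a median of 0.001 and 0.002 and a 95th percentile of 0.040 and 0.051. With Clec4f, Ctsb had 0.09 and 0.13, the highest of the 9 genes in both MASH sections, and 0.03 and 0.05 in the MAFL sections, where Lgmn (0.05 in MAFL-1) and Ctsd (0.07 in MAFL-2) were highest. With Cidec, Lipa had 0.05 and 0.08 in the MASH sections and -0.01 and -0.001 in the MAFL sections. Between members, Ctsd and Ctsb had 0.10 and 0.14 in the MASH sections, against 0.009 and -0.003 in the MAFL sections, and Ctsb and Lgmn had 0.11 and 0.11 against 0.03 and 0.03. Spots of a section share a library and a slide, and values this low in sparse counts describe these sections only.

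The genes most like each member over spots were taken by mean rho over the 4 sections. The 3 nearest were Lyz2, H2-Ab1 and Psap for Ctsd, Cd5l, Lyz2 and C1qc for Ctsb, Tmsb4x, H2-Aa and Cd74 for Ctss, and Tmsb4x, Cd5l and C1qb for Lgmn. Those of Npc2 were Tmsb4x, Psap and C1qb. Those of Ctsl were Alb, Mup20 and Hp, those of Lipa Cyp2e1, Cyp3a11 and Mup17, those of Lamp1 Cyp3a11, Ube2z and B2m, and those of Ctsz Hp, Lyz2 and Rnf13. Lyz2, Cd5l, C1qb and C1qc are macrophage genes, and Alb, Hp, Cyp2e1, Cyp3a11, Mup17 and Mup20 hepatocyte genes. The mean rho of these 27 pairs was at most 0.10, and only 12 of the 27 recurred when spots were thinned with another random seed.

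Ranking the thinned spots of each section by their UMIs from the 28 macrophage markers put more molecules behind each class. Ctss had 99.99 and 189 CPM in the highest of 3 equal classes of spots of the MASH sections and 48.6 and 78.3 CPM in the lowest class, a ratio of 2.06 and 2.41. In the MAFL sections it had 35.7 and 46.0 CPM in the highest and 27.2 and 36.0 CPM in the lowest class, a ratio of 1.31 and 1.28. The ratios of Lgmn were 1.95 and 1.90 in the MASH sections and 1.25 and 1.24 in the MAFL sections. Those of Ctsb were 1.28 and 1.45 in the MASH sections and 1.10 and 1.06 in the MAFL sections, and those of Ctsd 1.23 and 1.43 against 1.05 and 0.999. Npc2 had 1.29 in both MASH sections against 1.06 and 1.07 in the MAFL sections. Lipa had 1.01 and 1.18 in the MASH sections against 1.06 and 1.01 in the MAFL sections. Ctsl stayed between 0.995 and 1.04 in all 4 sections. Lamp1 had 1.06 and 1.08 in the MASH sections against 0.997 and 0.993 in the MAFL sections. Ctsz had 1.11 and 1.11 against 1.03 and 0.985. The share of all genes with higher ratios in both MASH sections was not counted. The classes are ranks within a section and are not alike between the groups. The mean thinned spot had 7.86 and 9.34 macrophage-marker UMIs in the MASH sections, against 3.61 and 4.46 in the MAFL sections. The difference between the groups in these ratios was not tested.

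**Figure D5:**
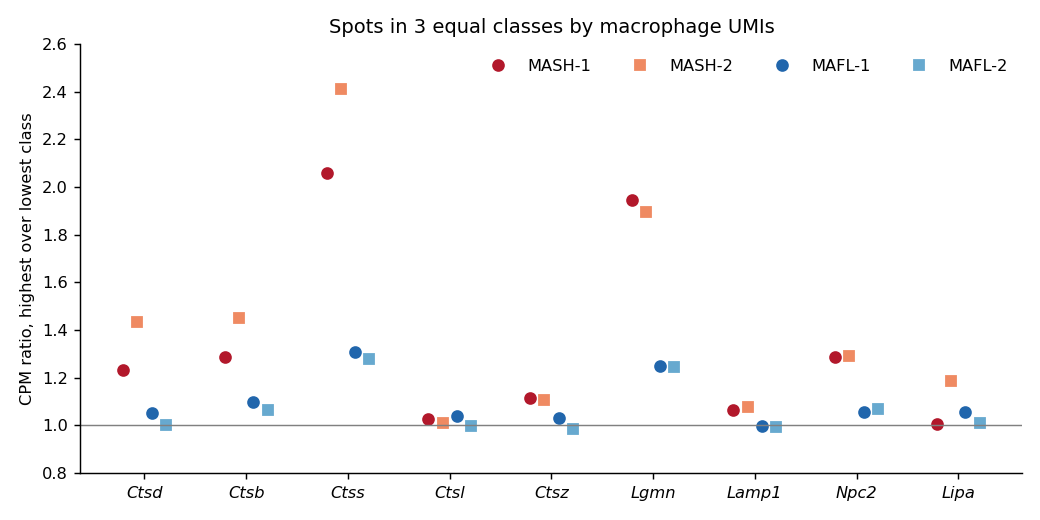
Ratio of CPM in spots with most macrophage-marker UMIs over spots with fewest, of 3 equal classes (vertical axis; 1 means no difference), for each gene and section (MASH red, MAFL blue). Ctss and Lgmn reach 1.90 to 2.41 in the MASH sections and 1.24 to 1.31 in the MAFL sections, while Ctsl stays near 1. Classes are ranks within a section, and MAFL spots held fewer macrophage-marker UMIs on average.

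The groups were last compared in spots with like numbers of macrophage-marker UMIs, an alternative chosen after the data were seen. The median thinned spot had 7 and 8 macrophage-marker UMIs in the MASH sections, against 3 and 4 in the MAFL sections. Spots with 4 to 6 such UMIs numbered 793 and 479 in the MASH sections and 726 and 832 in the MAFL sections. These spots held a mean of 5.05 and 5.06 such UMIs in the MASH sections, against 4.75 and 4.86 in the MAFL sections. The match was thus not exact, and the MASH sections kept the higher means. The window of 4 to 6 UMIs lay below the medians of both MASH sections, but not below those of the MAFL sections. The same counts chose the spots and gave these means, so they cannot show that macrophage content was alike. The part of macrophage content in the values that follow was not tested. In these spots Ctss had 53.1 and 83.6 CPM in the MASH sections and 30.4 and 41.8 CPM in the MAFL sections. Lgmn had 108 and 129 CPM against 79.2 and 87.3 CPM. Both genes lay higher in both MASH sections, with log2 fold changes of 0.84 for Ctss, beside 1.35 over all spots, and 0.44 for Lgmn, beside 0.82. Neither passed, with edgeR adjusted p of 0.160 and 0.237, where 113 of 12084 genes tested did. Ctsd, Npc2, Lipa and Lamp1 also had higher CPM in both MASH sections, Ctsz was lower in both, and Ctsb and Ctsl overlapped. The share of all genes that did not overlap in these spots is not given here. Which macrophages these UMIs came from was not matched.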

How the data were processed

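The authors deposited raw UMI counts per gene and spot for each section. Per the file headers these were written by Space Ranger 1.2.2, and the submitters' processing notes name build mm10. The files hold counts only, with no spot positions and no image. Spots under 500 UMIs were left out (3 in MASH-1, 3 in MAFL-1). UMIs were summed per section, or per section and spot class, and given as CPM. Each test was edgeR 4.0.16's quasi-likelihood test in R 4.3.3 (TMM factors, filterByExpr, robust fit), with p-values adjusted by Benjamini-Hochberg over all genes tested and a threshold of 0.05; DESeq2 1.42.0 was an alternative. Comparisons between lobule zones or spot classes kept the section as a block and left out the genes used to build them. The main fits of MASH against MAFL had no block, and those within zones left out Cyp2f2 and Cyp2e1. The fit in macrophage-matched spots kept the marker genes that define those spots. Classes came from spots thinned at random to 5000 UMIs, which at least 98.3% of spots of each section reached. The scripts were tested on simulated counts. The members, the 19 gene lists and the tests were chosen with earlier results of these data known. The 9 members and 3 anchors are named throughout; of each list, up to 4 genes of the smallest p are named, plus any gene of a count of 5 or fewer, and for each member the 3 genes of highest mean rho. No doublet caller was run, since a spot can hold several cells. Same-numbered sections deviated from their group means with a correlation of -0.195 over 13593 genes, and nothing in the labels pairs them. Alternatives changed the scaling, the low-count filter, the test, the block, the zone score, the thinning and the sections included. Values of some genes of these lists are not reported here. Gene names and promoters came from RefSeq (GRCm38.p6).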

Additional observations from a re-analysis of the deposited data

Results flagged for a closer look

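The log2 ratio of Ctsz between Gpnmb-holding and Gpnmb-lacking spots was 0.11 and 0.08 in the MASH sections and -0.35 and -0.07 in the MAFL sections, so that all sections of each group moved in opposite directions, and the group means differed by 0.306. This difference was not tested, and the MAFL ratios rest on 3 and 5 holding spots with 18 and 69 Ctsz UMIs.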

How the results depend on the processing

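Of 946 recomputed values for single members, 826 kept their direction and their side of the threshold, 60 turned in sign with neither value called (reported log2 values of at most 0.27 in size), 23 lost the call, 36 gained it and 0 called values reversed; 1, the count of nearest genes shared with another seed (12 of 27), was of another kind. Counts of called genes moved far more, and their causes were not tested. The whole-section count of 62 became 627 with DESeq2, 1153 without the low-count filter, 113 in spots matched on macrophage UMIs and 0 with the replicate block (1900 genes at an unadjusted p under 0.05), and 20 to 535 without 1 section; crossing the pairs, tried after the data were seen, gave 779. The pericentral count of 89 became 285 with DESeq2, 58 with library totals and 28 to 1923 without 1 section. The middle count of 62 became 253 with DESeq2, 31 with library totals, 28 with the replicate block and 24 to 453 without 1 section. The periportal count of 160 became 341 with DESeq2, 71 with the replicate block and 100 to 715 without 1 section. The replicate block added a call of Ctss in the pericentral zone (adjusted p = 0.0396) and changed no other call of a member between the groups. The periportal against pericentral count of 2320 became 1119 with DESeq2, 278 with no replicate block for the section and 1388 to 2015 without 1 section, and the 49 zone interactions 23 with DESeq2 and 21 to 169 without 1 section. The Gpnmb count of 220 became 4 with DESeq2, 376 with library totals, 432 with raw classes, 417 with another seed, 131 at 2500 UMIs, 0 with no block, 93 without Clec4f spots, 415 in MASH sections alone and 18 to 250 without 1 section. The Clec4f count of 48 became 4 with DESeq2, 82 without the filter, 195 with raw classes, 131 with another seed, 73 at 2500 UMIs, 0 with no block and 18 to 45 without 1 section; its 3 interactions became 0 with DESeq2, 7 with another seed and 0 to 82 without 1 section. The Cidec count of 113 became 17 with DESeq2, 170 without the filter, 16 with raw classes, 226 with another seed, 0 with no block and 14 to 203 without 1 section, and its 70 interactions 39 with DESeq2 and 19 to 61 without 1 section. The median correlation with Gpnmb was 0.0330 at 2500 UMIs, 0.0470 with another seed, 0.153 with unthinned CPM, 0.0523 as Pearson's r 0.0460 without MASH-2 and 0.0554 without MASH-1 (0.0404 as reported), and that with Clec4f 0.0784 with unthinned CPM. The median over members of the difference in the share of spots, 5.77 percentage points with thinning, was 0.470 without it. With 2 sections a group, calls that appear under some settings only are bounded by this small number; depth limits Ctss and Lgmn most in the MAFL sections, where whole sections held 965 and 1563 Ctss UMIs.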
